A study of Homo sapiens with 6 samples.

Results

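The core of DNA damage signaling, 10 of the 58735 annotated genes in the deposited count table, was followed in TNBC cells given an herbal extract: the apical kinases ATM, ATR and PRKDC, the effector kinases CHEK1, CHEK2 and WEE1, and the histone mark and its mediators H2AFX, TP53BP1, MDC1 and TOPBP1. They were taken by gene name, and each name matched a single row. MDA-MB-231, a human triple-negative breast cancer line labelled wild type, was cultured for 24 h with vehicle (3 samples) or with 100 mg/l of Salvia chinensis Benth (SCH, 3 samples), an aqueous extract dosed as the weight of raw herb. Every sample is of this line, and no untreated or other-dose sample was analysed here. The samples of a group are described as biological repeats, numbered 1 to 3, with nothing further on how the cultures were kept apart, so p-values measure the spread between these samples of a single line. Total gene counts ran from 16836369 to 20291379, and the 10 genes together took 0.102% to 0.116% of each library.

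Cells answer a broken or stalled DNA strand with a relay of kinases. ATM and the DNA-PK catalytic subunit (PRKDC) act at double-strand breaks, and ATR, with TOPBP1 as its activator, acts at single-stranded DNA. These kinases phosphorylate the histone variant H2AX, which MDC1 reads and around which 53BP1 gathers, and they switch on CHK1 and CHK2, while WEE1 holds CDK1 in check. Most of this relay runs by phosphorylation and by moving proteins to chromatin, which RNA counts do not measure. What was compared here is the RNA level of each component, in cells where the study asked how SCH acts on the DNA damage pathway.

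The labelled line was checked against its markers. The mesenchymal genes VIM (1406 ± 23.1 CPM in vehicle, 957 ± 19.7 in SCH; mean ± SD, n = 3; CPM is the count scaled to the TMM-normalized library size) and CD44 (999.7 ± 31.2 and 1023 ± 23.6) were abundant, and the keratin KRT18 had 431 ± 15.6 CPM in vehicle and 247 ± 7.35 in SCH. Of 4 genes listed as low in this line, the hormone receptors ESR1 and PGR held at most 4 counts in any sample and the cadherin CDH1 at most 6, but the epithelial adhesion gene EPCAM held 347, 280 and 314 in vehicle and 213, 203 and 240 in SCH. VIM, KRT18 and EPCAM were lowered by edgeR's test, with log2 fold changes of -0.56, -0.80 and -0.52. The leukocyte markers CD3E and CD68 held at most 2 counts in any sample. Another leukocyte marker, PTPRC, had 39, 37 and 34 counts in vehicle and 4, 9 and 3 in SCH and was lowered, with a log2 fold change of -2.75 (adjusted p = 8.80e-07). Fibroblast markers DCN, LUM and PDGFRA held at most 1 count, and of the endothelial markers VWF and CDH5 held at most 7 while PECAM1 held 15 to 30.

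SCH treatment changed the RNA of 5 of the 10 genes, 2 upward and 3 downward, by edgeR's quasi-likelihood test with Benjamini-Hochberg adjustment over 14736 tested genes. TP53BP1 and ATM were raised, by 30.3% and 19.6%. WEE1 fell by 36.1%, PRKDC fell by 20.8% and H2AFX fell by 17.8%. ATR, CHEK1, CHEK2, MDC1 and TOPBP1 did not pass the threshold of 0.05. The background is wide: 58.7% of all tested genes passed, 29.3% raised and 29.4% lowered, so 5 of 10 is near the share for any gene. All 10 genes passed the filter on low counts. The absolute log2 fold change had a median of 0.22 over the 10 genes, beside 0.31 over all tested genes, and the signed median was -0.02. WEE1 had a larger change than 67.8% of called genes, and ATM a larger change than 19.5%. In bulk RNA, a smaller share of cells in a cell cycle phase and less RNA per cell cannot be told apart.

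**Figure D1:**
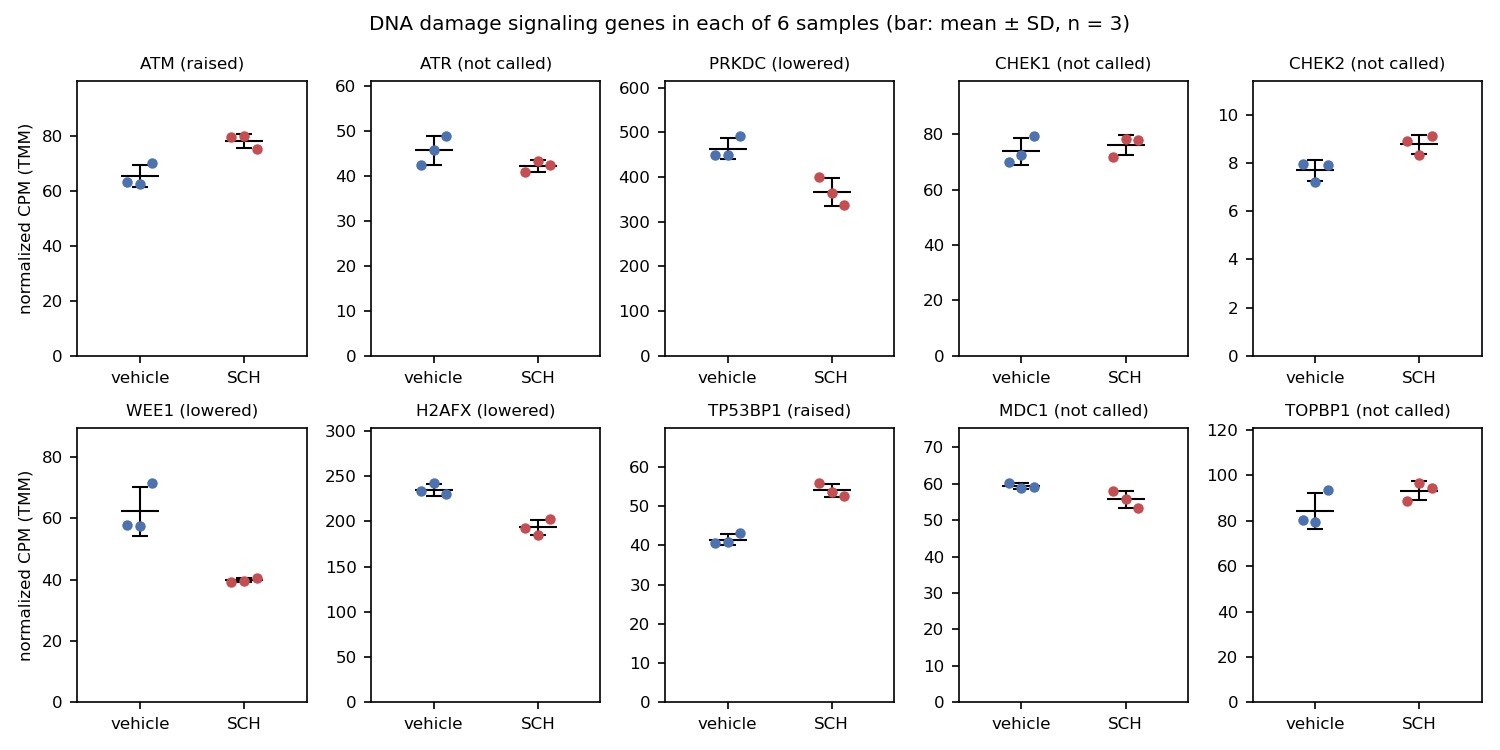
Normalized CPM of each gene in the 3 vehicle and 3 SCH samples, with the group mean ± SD; each axis starts at 0. SCH samples lie wholly above vehicle samples for ATM, CHEK2 and TP53BP1 and wholly below them for PRKDC, WEE1, H2AFX and MDC1.

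The 3 apical kinases did not move together. ATM, the kinase that answers double-strand breaks, had 63.5, 62.8 and 70.2 CPM in vehicle and 79.6, 80.0 and 75.3 CPM in SCH. Every SCH sample was above every vehicle sample. The log2 fold change was 0.26 (SE 0.060, adjusted p = 7.06e-04). ATM lies at chr11:108222484-108369102 on the plus strand (GRCh38, GENCODE 29), and counts were taken over all its exons, of which 1.5% of the bases are shared with exons of NPAT, C11orf65 and RF00019.

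PRKDC, the catalytic subunit of DNA-PK, had 449.7, 450.0 and 491 CPM in vehicle and 400.1, 364 and 338 CPM in SCH. The groups were apart, with all SCH samples low. Its log2 fold change was -0.34 (SE 0.056, adjusted p = 1.81e-05). The gene spans 187 kb at chr8:47773108-47960183 on the minus strand. XRCC6 and XRCC5, which encode the Ku70 and Ku80 proteins that load this kinase onto DNA ends, were lowered as well, with log2 fold changes of -0.32 (SE 0.046, adjusted p = 2.73e-06) and -0.26 (SE 0.051, adjusted p = 1.29e-04). DCLRE1C, the Artemis nuclease that DNA-PK activates, was raised at 0.21 (SE 0.089, adjusted p = 0.0411), a call that 8 of 15 alternative settings did not keep.

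ATR, the kinase of stalled replication forks, had 42.4, 45.8 and 48.8 CPM in vehicle and 40.8, 43.3 and 42.5 CPM in SCH. The groups overlapped, and the vehicle samples spread more widely than the SCH samples. Its log2 fold change was -0.11 with a 95% interval from -0.25 to 0.026 (adjusted p = 0.157), at chr3:142449235-142578826 on the minus strand. It was -0.06 without vehicle replicate 3 and -0.16 without vehicle replicate 1, and was not called in either. ATRIP, the partner through which ATR binds coated single-stranded DNA, had 27.9 CPM in vehicle and 27.1 in SCH (log2 fold change -0.04, adjusted p = 0.692).

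Among the effector kinases, WEE1 carried the change. WEE1, which holds CDK1 inactive before mitosis, had 57.9, 57.4 and 71.6 CPM in vehicle and 39.3, 39.5 and 40.5 CPM in SCH. The SCH samples were close together and all low, whereas vehicle replicate 3 stood above the other vehicle samples. The log2 fold change was -0.65 (SE 0.075, adjusted p = 1.13e-07), and without vehicle replicate 3 WEE1 was still lowered, at -0.53. WEE1 lies at chr11:9573681-9593457 on the plus strand.

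CHEK1, the kinase downstream of ATR, had 69.8, 72.3 and 79.2 CPM in vehicle and 71.7, 78.4 and 77.9 CPM in SCH. The groups overlapped over most of their range. Its log2 fold change was 0.04 with a 95% interval from -0.081 to 0.17 (adjusted p = 0.551), at chr11:125625136-125676255 on the plus strand. It ran from 0.01, without vehicle replicate 1, to 0.10, without vehicle replicate 3, with no call when a sample was left out. CHEK2, the kinase downstream of ATM at chr22:28687743-28742422 on the minus strand, was the least abundant of the 10, with 155, 129 and 141 counts in vehicle and 155, 155 and 173 in SCH. After normalization these were 7.95, 7.19 and 7.93 CPM in vehicle and 8.89, 8.32 and 9.10 CPM in SCH. The SCH samples were all higher, but the log2 fold change of 0.19 had a 95% interval from -0.055 to 0.43 (adjusted p = 0.177), the widest interval of the 10. Its annotated pseudogene copies CHEK2P2 to CHEK2P5 held no counts in any sample.

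The mark and its readers split in direction. H2AFX, which encodes the histone H2AX, had 233, 242 and 229.7 CPM in vehicle and 192, 185 and 202 CPM in SCH. All SCH samples were low and the groups were far apart relative to their spread. The log2 fold change was -0.28 (SE 0.050, adjusted p = 3.42e-05), at chr11:119093854-119095467 on the minus strand, a gene of 1.6 kb that shares no exon base with another gene. H2AX RNA is made both with and without a poly-A tail, and the libraries were built from RNA taken with poly-T beads.

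TP53BP1, which encodes the 53BP1 protein that steers breaks toward end joining, had 40.6, 40.8 and 43.0 CPM in vehicle and 55.9, 53.6 and 52.6 CPM in SCH. Both groups were tight and did not overlap. The log2 fold change was 0.38 (SE 0.063, adjusted p = 1.48e-05), at chr15:43403061-43510728 on the minus strand. Of its exon bases 28.7% are shared with TUBGCP4 on the opposite strand. TUBGCP4 itself had 25.8 CPM in vehicle and 23.9 CPM in SCH (adjusted p = 0.268), a value that did not pass the test.

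MDC1, the adaptor that binds phosphorylated H2AX, had 60.2, 58.8 and 58.9 CPM in vehicle and 57.9, 55.8 and 53.3 CPM in SCH. Every SCH sample was below every vehicle sample, yet the log2 fold change of -0.09 had a 95% interval from -0.21 to 0.031 (adjusted p = 0.193), and its sign turned to 0.01 when counts were scaled by library size only. Without SCH replicate 3 it was -0.05. MDC1 lies at chr6:30699807-30717889 on the minus strand. TOPBP1, the activator of ATR at chr3:133598175-133662380 on the minus strand, had 80.3, 79.3 and 93.4 CPM in vehicle and 88.6, 96.6 and 94.4 CPM in SCH. Only vehicle replicate 3 reached into the SCH range. The log2 fold change was 0.15 with a 95% interval from 0.015 to 0.28 (adjusted p = 0.0516), and its call moved with single samples. It was called without vehicle replicate 3 (0.23, adjusted p = 9.81e-04) or SCH replicate 1 (0.19, adjusted p = 0.0267), and not called without vehicle replicate 1 (0.12, adjusted p = 0.201), vehicle replicate 2 (0.11, adjusted p = 0.203), SCH replicate 2 (0.13, adjusted p = 0.158) or SCH replicate 3 (0.15, adjusted p = 0.0984).

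Counted without a model, 7 of the 10 genes had groups that did not overlap, 3 with SCH above and 4 with SCH below. Of all tested genes 62.4% had such groups, 31.1% with SCH above and 31.3% with SCH below. Vehicle replicate 3 was the highest of the vehicle samples for ATM, ATR, PRKDC, CHEK1, WEE1, TP53BP1 and TOPBP1. It was also the farther library of its group by counts, with a chi-square per degree of freedom of 4.49 and 5.73 against vehicle replicates 1 and 2, which gave 2.11 against each other, and the 10 genes took their highest share there (0.116%). In the SCH group the same measure was 4.04, 5.32 and 2.44. Without vehicle replicate 3 the 5 called genes kept their calls and TOPBP1 was added. Correlations of log2 CPM were 0.995 to 0.996 within a group and 0.974 to 0.976 between groups.

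**Figure D2:**
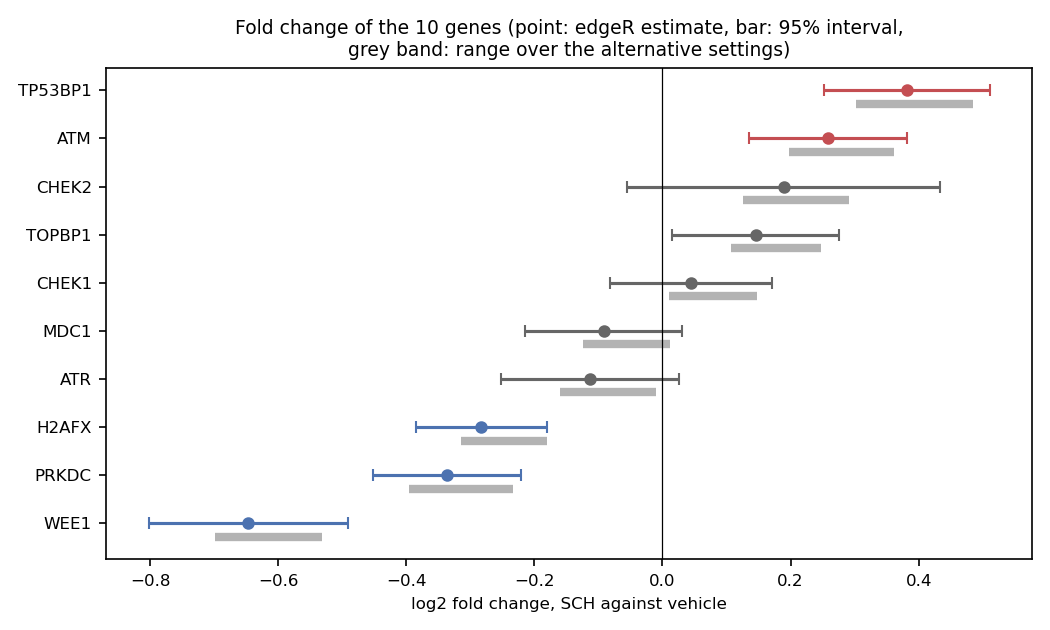
Log2 fold change of the 10 genes, SCH against vehicle, with the 95% interval of edgeR's fit; the grey band under each point is the range of the estimate over the alternative settings. WEE1, PRKDC and H2AFX lie below 0 and ATM, TP53BP1 and TOPBP1 above 0 over the whole of both ranges, though TOPBP1 missed the adjusted threshold, and MDC1's band crosses 0.

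Levels can be compared between genes only per length, and for this the deposited FPKM values (fragments scaled to a gene length and a library scale) were used. The length is that of all annotated exon bases of the gene joined, so a gene with many rarely used exons has a lower value, and the library scale was 0.992 to 1.00 times the total count in vehicle and 1.06 to 1.07 times in SCH. H2AFX was by far the highest of the 10 in vehicle at 141 ± 4.04 FPKM, followed by PRKDC at 29.1 ± 1.46. TOPBP1 (11.2 ± 1.03) and CHEK1 (10.9 ± 0.709) came next and overlapped each other, as did MDC1 (7.11 ± 0.0948) and WEE1 (6.52 ± 0.834). The other 4 genes were lower, with ATR at 3.53 ± 0.244, TP53BP1 at 3.09 ± 0.0967, ATM at 2.64 ± 0.164 and CHEK2 at 1.65 ± 0.0926 FPKM, and neighbours in this run did not overlap. The length includes exon bases shared with other genes, 16.4% for ATR, 28.7% for TP53BP1, 1.5% for ATM and 6.7% for CHEK2. Reads there may have been counted for another gene or for none, so the order of close values is uncertain. In SCH the ends of the order were the same, with H2AFX at 116 ± 5.00 and CHEK2 at 1.89 ± 0.0854 FPKM. The middle closed up: WEE1 stood at 4.18 ± 0.0567, TP53BP1 at 4.04 ± 0.140, ATR at 3.28 ± 0.0916 and ATM at 3.17 ± 0.115 FPKM, so that TP53BP1 lay above ATR in SCH and below it in vehicle.

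**Figure D3:**
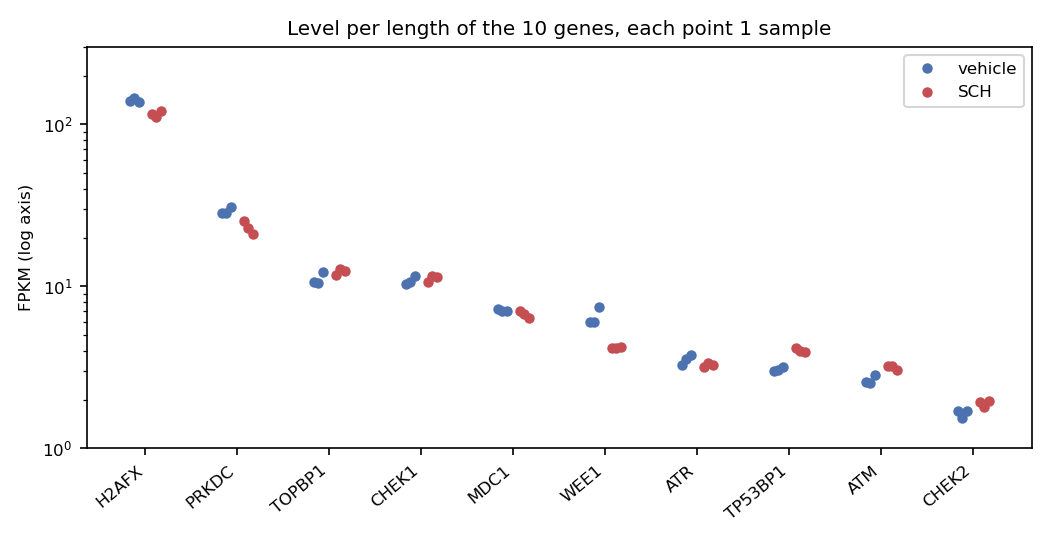
Level per length (FPKM, log axis) of the 10 genes in each sample, ordered by the vehicle mean. H2AFX lies near 141 FPKM in vehicle and CHEK2 near 1.65, and the SCH points of WEE1 and TP53BP1 come close to each other.

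Several of these genes start beside another gene on the opposite strand. Within 1000 bp, 5 of the 10 have such a neighbour. PRKDC and MCM4, a subunit of the replicative helicase, start 2 bp apart and point away from each other. MCM4 had 277, 282 and 291 CPM in vehicle and 224, 221 and 231 in SCH. It fell, with a log2 fold change of -0.33 (SE 0.047, adjusted p = 2.09e-06), close to the -0.34 of PRKDC. ATM and NPAT, a coactivator of histone genes, overlap at their starts, which lie 158 bp apart. NPAT had 25.2, 28.5 and 28.7 CPM in vehicle and 38.1, 43.2 and 41.6 CPM in SCH, and was raised at 0.58 (SE 0.075, adjusted p = 5.17e-07), beside 0.26 for ATM.

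TP53BP1 and MAP1A, a microtubule-associated protein best known from neurons, start 230 bp apart and point away from each other. MAP1A was scarce in vehicle, with 51, 42 and 34 counts, and had 179, 219 and 157 counts in SCH. All SCH samples were high, and the log2 fold change of 2.13 (SE 0.17, adjusted p = 2.00e-10) stood beside 0.38 for TP53BP1. On the log2(FPKM + 1) scale, which compresses low values, MAP1A was raised at 0.67, and it ranged from 1.72 to 2.27 in the other alternatives. CHEK2 and HSCB, an iron-sulfur cluster co-chaperone, overlap at their starts, which lie 391 bp apart, and neither passed the test (HSCB 0.09, adjusted p = 0.514). TOPBP1's neighbour, the pseudogene TFP1, held at most 1 count and was not tested. Whether the genes of a pair share control was not tested.

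**Figure D4:**
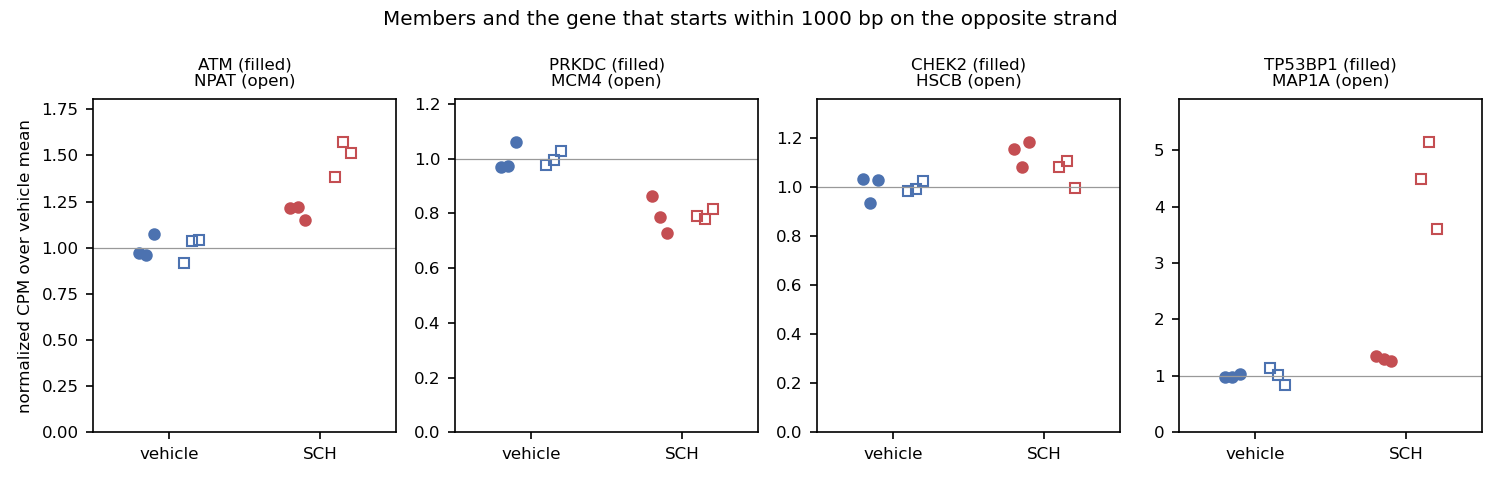
Normalized CPM of 4 genes (filled) and of the tested neighbour that starts on the opposite strand within 1000 bp (open), each divided by its own vehicle mean; axes start at 0. PRKDC and MCM4 are low together in SCH, ATM and NPAT high together, and MAP1A rises several times further than TP53BP1.

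Promoter sequences were taken from RefSeq (GRCh38.p14), where 8 of the 10 genes had an entry, all but WEE1 and PRKDC. Stretches free of any annotated exon are printed for H2AFX, which holds more CCAAT boxes than any other of these windows, and for TP53BP1, whose stretch lies in the gap to MAP1A. The first is at chr11:119095468-119095715, minus strand, with each CCAAT box (CCAAT, or ATTGG on the other strand) and the CHR element (TTTGAA, or TTCAAA) in capitals. The second is at chr15:43510729-43510890, minus strand, with each GC box (GGGCGG, or CCGCCC) in capitals. Both read from upstream toward the gene.
H2AFX: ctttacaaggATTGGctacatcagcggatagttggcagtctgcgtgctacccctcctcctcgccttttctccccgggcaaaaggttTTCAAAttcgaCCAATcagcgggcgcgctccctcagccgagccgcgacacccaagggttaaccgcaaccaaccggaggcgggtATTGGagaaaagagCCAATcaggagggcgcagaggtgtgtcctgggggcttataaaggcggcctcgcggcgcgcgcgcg
TP53BP1: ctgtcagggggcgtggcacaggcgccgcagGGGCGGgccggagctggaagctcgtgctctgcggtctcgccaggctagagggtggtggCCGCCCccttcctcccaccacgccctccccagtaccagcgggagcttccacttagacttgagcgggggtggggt
The H2AFX stretch held 4 CCAAT boxes and 1 CHR element, none overlapping another. Of 35116 RefSeq promoter windows of 250 bases before and 50 after a start, 34.6% held a CCAAT box on either strand, 0.99% held 4 or more, and 15.2% held a CHR element. The TP53BP1 stretch held 2 GC boxes, a motif found in 45.0% of windows. CCAAT boxes with CHR elements are known from promoters of genes that peak late in the cell cycle. Both were held by 5.9% of all windows and by 3 of the 11 windows of the 8 genes: the window of H2AFX, which was lowered, that of MDC1, which did not pass the test, and a window of ATM, which was raised. These matches describe letters in a window and were not tested as sites.

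Lists of genes around the relay, chosen with earlier results of these data known, are read against the 58.7% of all tested genes that passed. Of 16 genes that sense breaks or pass on the ubiquitin signal from H2AX, 4 were raised and 7 lowered (68.8% called), and their median log2 fold change was -0.05, beside -0.0034 over all tested genes. That count of 11 was 7 without SCH replicate 1 or without SCH replicate 2. The ubiquitin ligases RNF8 and RNF168, which act after MDC1, were raised at 0.23 (adjusted p = 0.00231) and 0.27 (adjusted p = 9.12e-04). BRCA1, which opposes 53BP1 at breaks, was raised at 0.27 (adjusted p = 3.65e-04), as was MAD2L2, a member of the shieldin complex that works with 53BP1, at 0.47 (adjusted p = 4.99e-07). PAXIP1, a 53BP1 partner, fell, with a log2 fold change of -0.40 (adjusted p = 1.71e-05). BABAM2, a scaffold of the BRCA1-A complex, fell furthest, from 16.2 to 3.95 CPM (-2.03, SE 0.13, adjusted p = 5.80e-12), with 13.1% of its exon bases shared with MRPL33 and RBKS. Of the complex that activates ATM, MRE11 was lowered at -0.18 (adjusted p = 0.0363, lost in 10 of 15 alternatives), NBN was at -0.0034 (adjusted p = 0.967) and RAD50 at 0.04 (adjusted p = 0.827). RAD50 held only 122 to 151 counts a sample, with a 95% interval from -0.24 to 0.32. Of its exon bases 79.7% are shared with AC116366.3 and TH2LCRR.

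On the ATR side, 6 of 13 activating and fork-protecting genes were raised and 2 lowered (61.5% called, near the background, median 0.02). CLSPN, the adaptor that brings CHK1 to ATR, rose from 85.9 to 118 CPM (0.45, adjusted p = 1.73e-07) while CHEK1 and ATR themselves did not pass. The fork protector TIMELESS rose (0.24, adjusted p = 4.97e-04) and its partner TIPIN fell (-0.42, adjusted p = 3.92e-05), with 21.0% of TIPIN's exon bases shared with RPL9P25. The checkpoint clamp subunits HUS1 (0.37, adjusted p = 5.40e-04), RAD9A (0.29, adjusted p = 0.00511) and RAD1 (0.15, adjusted p = 0.0311) were raised, with their loader RAD17 (0.23, adjusted p = 0.00418). RAD1 lost its call in 5 of 15 alternatives. ETAA1, the other ATR activator beside TOPBP1, was at -0.03 (adjusted p = 0.843).

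Downstream, 1 of 10 checkpoint effectors was raised and 5 were lowered (60.0% called, near the background, median -0.10). CDKN1A, the p21 inhibitor of cyclin-dependent kinases, rose from 103 to 525 CPM (2.34, SE 0.055, adjusted p = 1.52e-19). CCNB1, the cyclin of CDK1, fell from 359 to 122 CPM (-1.55, adjusted p = 1.22e-17), PLK1, a mitotic kinase that marks WEE1 for removal, fell from 164 to 43.1 CPM (-1.93, adjusted p = 8.47e-18), and the phosphatase CDC25B fell too (-0.34, adjusted p = 5.66e-06). CDK1, the substrate of WEE1, had 167 CPM in vehicle and 177 in SCH (0.08, adjusted p = 0.210).

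The chaperones that fold ATM, ATR and PRKDC and the related kinases gave 4 raised and 3 lowered of 8 (87.5% called, median 0.13). The ATPases RUVBL1 (-0.73, adjusted p = 3.64e-10) and RUVBL2 (-0.55, adjusted p = 2.13e-08) fell, and TTI1, of the complex that holds newly made kinases, rose (0.24, adjusted p = 4.77e-04), as did the related kinase SMG1 (0.30, adjusted p = 1.68e-04). Of 7 phosphatases that reverse the signal, 2 were raised and 1 lowered (42.9% called, median 0.07). PPM1D, which removes phosphate from ATM targets including H2AX, rose (0.33, adjusted p = 0.00118), and PPP2CA fell (-0.24, adjusted p = 2.23e-04). PPP6C was raised at 0.15 (adjusted p = 0.0275), lost in 5 of 15 alternatives, and PPP2CB was at 0.07 (adjusted p = 0.261).

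H2AFX was not the only H2A variant to fall. Of the 4 other variants tested, 3 were lowered (75.0%, where 29.4% of all tested genes were lowered, median -0.20): H2AFZ at -0.46 (adjusted p = 1.90e-08), H2AFY, which shares 30.9% of its exon bases, at -0.24 (adjusted p = 1.26e-04) and H2AFV at -0.15 (adjusted p = 0.00702). The call of H2AFV was lost with library size only (-0.05, adjusted p = 0.352). H2AFJ had 33.8 CPM in vehicle and 36.8 in SCH (0.12, adjusted p = 0.194). It was called with library size only (0.22, adjusted p = 0.0174) and ran from 0.05, without SCH replicate 1, to 0.19, without vehicle replicate 1, when a sample was left out. H2AFY2, with 14, 13 and 8 counts in vehicle and 2, 9 and 4 in SCH, did not pass the filter on low counts. It passed in 5 of the 15 alternatives and was called lowered in 2 of them, without vehicle replicate 3 (-1.38, adjusted p = 0.0345) and without SCH replicate 2 (-1.89, adjusted p = 0.0135).

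All 15 G2/M genes on the list were lowered (29.4% of all tested genes were, median -0.65), among them AURKA (-1.66), CDC20 (-1.50), TPX2 (-0.78) and UBE2C (-0.76). The count was 13 with library size only and 14 or 15 in the other 14 alternatives. This list was chosen with earlier results of these data known, so its share is no test. Among the checkpoint effectors, CCNB1 and PLK1 were lowered as well, while CDK1 did not pass (0.08, adjusted p = 0.210). Of 15 S phase genes, 8 were lowered and 2 raised (66.7% called, beside 58.7% of all tested genes, median -0.16). Those lowered included GINS2 at -0.93, MCM5 at -0.89, MCM6 at -0.77 and MCM7 at -0.66. Those raised were RRM2 at 0.43 (adjusted p = 2.89e-07) and PCNA at 0.12 (adjusted p = 0.0287). Neither was followed by name through the alternatives, in which this S phase list had 8 to 11 calls. The part of cell cycle composition in the changes of WEE1, H2AFX and PRKDC was not tested.

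**Figure D5:**
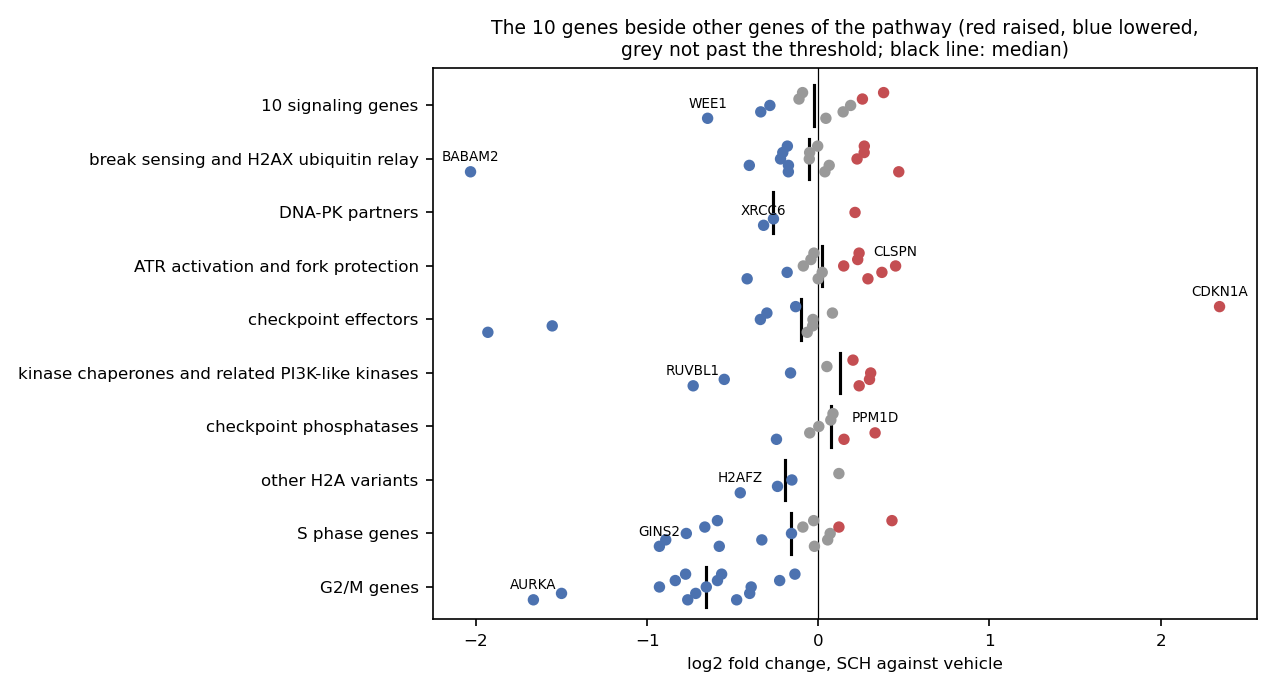
Log2 fold change, SCH against vehicle, of the 10 genes and of the tested genes of 9 other lists, 1 point a gene, with the list median as a black line; the gene furthest from 0 in each list is named. The 10 genes lie between -0.65 and 0.38, and all 15 G2/M genes lie below 0.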

How the data were processed

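RNA was sequenced on an Illumina HiSeq from poly-T selected libraries. The authors deposited raw read counts per gene and FPKM values per sample. The submitters' processing notes name CASAVA 1.8, HISAT2 2.0.5, featureCounts 1.5.0-p3, DESeq2 1.20.0 and GRCh38. The strand setting of the counting was not given in the sources used here. Reads on exon bases shared by overlapping genes may therefore have been counted for either gene or for neither. The labels and the study's methods give different culture media. Counts were filtered (filterByExpr), scaled (TMM) and tested with edgeR 4.0.16 (quasi-likelihood, 3 against 3 samples, no covariate), a gene being called at a Benjamini-Hochberg adjusted p under 0.05. FPKM served for levels between genes. The test was checked on simulated data. Gene positions and exon overlap came from GENCODE 29. Alternatives were RLE, library size only and upper quartile scaling, no filter, a minimum of 10 counts per sample, a replicate block, DESeq2 1.42.0, limma 3.58.1 on log2(FPKM + 1) and log2(FPKM + 0.1), and leaving out each sample. The members and lists were chosen with earlier results of these data known. All 10 members were named, and from each list up to 4 genes by adjusted p. The partners that start within 1000 bp and the printed sequences were chosen after their values were seen. So were RNF8, RNF168, MRE11, RAD50, NBN, RAD17, RAD9A, RAD1, ATRIP, ETAA1, CDK1, RRM2 and PCNA. Some genes of the lists are not reported here by name.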

Additional observations from a re-analysis of the deposited data

How the results depend on the processing

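Of the 10 genes, 6 changed neither sign nor call in any of the 15 alternatives (the 5 called genes and ATR). The log2 fold change ranged from 0.20 to 0.36 for ATM, 0.30 to 0.48 for TP53BP1, -0.40 to -0.23 for PRKDC, -0.70 to -0.53 for WEE1 and -0.32 to -0.18 for H2AFX. Scaling by library size only moved the median log2 fold change of all genes from -0.0034 to 0.099 and gave 5519 raised and 3295 lowered genes (62.6% raised, 49.9% with TMM). Under it 8 of the 10 were called, 5 raised, adding CHEK1 (0.15, adjusted p = 0.0440 by edgeR), CHEK2 (0.29, adjusted p = 0.0371) and TOPBP1 (adjusted p = 0.00203), MDC1 turned to 0.011, the break-sensing list had 6 calls and the phosphatases 5, PPP2CB (0.18, adjusted p = 0.00824) among them. The break-sensing list had 7 calls without the filter and 7 to 10 when a replicate was left out. TOPBP1 was also called with RLE (adjusted p = 0.0446), no filter (0.0239) and the replicate block (0.0391), and not with upper quartile scaling (0.135), the count minimum (0.0588), DESeq2 (0.0632) or limma (0.101 and 0.0973). With that block 8705 genes and 6 of the 10 were called. Samples with the same number did not deviate together (r = 0.046, -0.022 and 0.022), and 3 of 6 correlated best with their own number, so the numbers were not taken as pairs. Leaving out a replicate gave 7809 to 8489 called genes, and DESeq2 gave 7919, of which 7912 were shared with edgeR. Of 49 other named genes followed through these settings, 38 changed neither sign nor call. CDK1, TUBGCP4, STT3A, RRM2, PCNA, H2AFY2 and the marker genes were not part of this count. NBN, near 0, turned to 0.00091 with RLE, 0.0993 with library size only, 0.0141 without the filter, 0.00073 with DESeq2, and 0.0040 and 0.0045 with limma on FPKM. ATRIP turned to 0.060 and ETAA1 to 0.078 with library size only. With a replicate left out, NBN ran from -0.036 to 0.067, RAD50 from -0.050 to 0.17, ATRIP from -0.13 to 0.024 and ETAA1 from -0.088 to 0.018. Causes were not tested. Of the 10, CHEK2 had the fewest counts and the widest interval.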

Other observations

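Ratios within a sample do not depend on scaling between libraries. The 5 per-length ratios below, chosen after their values were seen, were compared by a two-sided exact permutation test, whose smallest p for 3 against 3 samples is 0.1, so none could pass. ATM relative to ATR was 0.779, 0.714 and 0.750 in vehicle and 1.02, 0.962 and 0.923 in SCH, a mean ratio 1.29 times as high (exact p = 0.1, adjusted p = 0.125), with no overlap. TP53BP1 relative to MDC1 went from 0.434 ± 0.0174 to 0.603 ± 0.00915 (SD, n = 3, exact p = 0.1). WEE1 relative to CHEK1 went from 0.598 ± 0.0397 to 0.372 ± 0.0161 (SD, n = 3, exact p = 0.1). Relative to CCNB1, WEE1 stood higher in SCH, at 0.0901 ± 0.00224 against 0.0480 ± 0.00543 (SD, n = 3, exact p = 0.1), since CCNB1 fell further than WEE1. PRKDC relative to XRCC6 was 0.148 ± 0.00957 in vehicle and 0.147 ± 0.0184 in SCH, and these overlapped (SD, n = 3, exact p = 1). STT3A, an oligosaccharyltransferase subunit that shares 1.22% of the exon bases of CHEK1, was lowered (-0.54) where CHEK1 did not pass the test by edgeR.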
